A study of Mus musculus with 8 samples.

Results

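The genes described here encode the contractile apparatus of smooth muscle, and the question asked of them is how much smooth muscle message lay in the captured endometrium, gene by gene and library by library. The 10 genes, Acta2, Actg2, Myh11, Cnn1, Tagln, Des, Smtn, Lmod1, Synpo2 and Myocd, were chosen by symbol from the 52325 genes of the count table. All 10 passed the filter on low counts and were among the 18174 genes tested.

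Bulk RNA-seq was carried out on endometrium that a laser had cut out of frozen uterine sections. The mice were 4 WT and 4 Thra1PV/+ females, all synced at metestrus. Thra1PV/+ mice carry, in every cell from the germline, a knock-in at 1 of the 2 alleles of Thra that encodes TRα1PV, a thyroid hormone receptor with a frameshifted C-terminus and dominant-negative action. The age of the mice used for capture is not given in the sources used here. The libraries are named by genotype and replicate, WT 1 to 4 and Thra1PV/+ 1 to 4, and nothing pairs a WT mouse with a mutant mouse.

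Smooth muscle shortens when myosin filaments pull on thin filaments of smooth muscle actins, and calcium starts this through calmodulin and the kinase of the myosin light chain. In the uterus the muscle forms the myometrium outside the endometrium, and a thinner coat of the same kind of cell wraps the arteries that run through the endometrium. Most contractile genes are controlled by the serum response factor SRF and its coactivator myocardin, which Myocd encodes. Endometrial stromal cells and myofibroblasts can also carry some of these messages, Acta2 and Tagln among them.

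The library totals lay between 48791602 and 59818887 counts, and mitochondrial genes held 3.54% to 5.41% of the counts. Endometrial marker genes were present in every library: 12 stromal markers summed to between 419 and 3347 CPM (counts scaled to a library size of 1e+06 after normalization), and 10 markers of simple epithelium and glands summed to between 2279 and 6054 CPM. Of 11 squamous epithelium markers, 9 were called higher in Thra1PV/+ libraries, against 0.990% of all tested genes called in either direction. Without WT library 4 the number was 4. Thra had 45.8 to 127 CPM in mutant libraries and 47.4 to 110 CPM in WT libraries, and this level does not tell the mutant allele from the normal one. Calls required a change of at least 2-fold together with an adjusted p-value of at most 0.1 in edgeR's quasi-likelihood test (Benjamini-Hochberg adjustment over all tested genes).

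WT library 1 stood apart from all the other libraries in these genes. The 10 genes together held 1.38% of its counts (95% exact binomial interval 1.37% to 1.38%, which covers counting error only). They held 0.0835% of the counts in WT library 2, 0.0496% in WT library 3 and 0.114% in WT library 4. In the mutant libraries 1 to 4 they held 0.0478%, 0.0147%, 0.0183% and 0.0747%. The share in WT library 1 was 12.1 times the next highest, and the other 7 libraries of both genotypes overlapped. In bulk samples, fewer muscle cells and less muscle message per cell cannot be told apart. By a rule chosen after the values were seen, a gene counted as standing apart in WT library 1 when its CPM there was at least 4 times that of the next highest library, which held for 9 of the 10 genes, all but Synpo2, and for 1.31% of all tested genes.

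**Figure D1:**
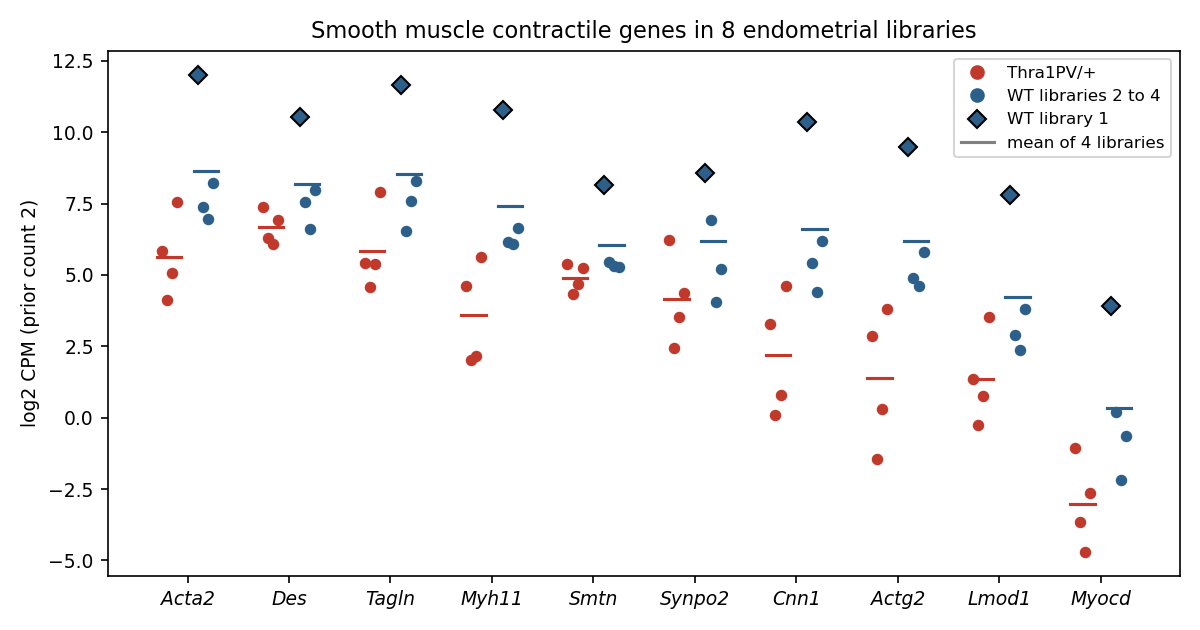
Level of each gene in each library, as log2 CPM with a prior count of 2 (vertical axis), with Thra1PV/+ libraries in red, WT libraries in blue, WT library 1 as a diamond and a bar at the mean of each genotype. WT library 1 lies above all other libraries for every gene, and Actg2 and Myh11 are the only genes whose mutant and WT libraries do not overlap.

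No gene of the group was called. With all 8 libraries, 0 of 10 genes passed in edgeR's quasi-likelihood test, against 0.990% of all tested genes in either direction, and the adjusted p-values lay between 0.332 and 0.565. All 10 log2 fold changes of Thra1PV/+ against WT were below 0, as were those of 56.8% of all tested genes, and their median was -3.96, against -0.05 over all tested genes. At an unadjusted p under 0.05 there were 9 of 10 genes, all lower in the mutant, against 4.72% of all tested genes in that direction. Without WT library 1, still 0 of 10 genes were called (0.901% of the tested genes), 1 of 10 had an unadjusted p under 0.05 (3.53% of the tested genes in that direction), and the median log2 fold change was -1.27, against 0.00 over all tested genes. The 10 fold changes were then again below 0, as were 49.6% of the tested ones. DESeq2 called 0 of the 10 as well (3.58% of the genes to which it gave an adjusted p-value). It gave no p-value for 8 of the 10, and adjusted p-values of 0.105 for Des and 0.265 for Synpo2.

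**Figure D2:**
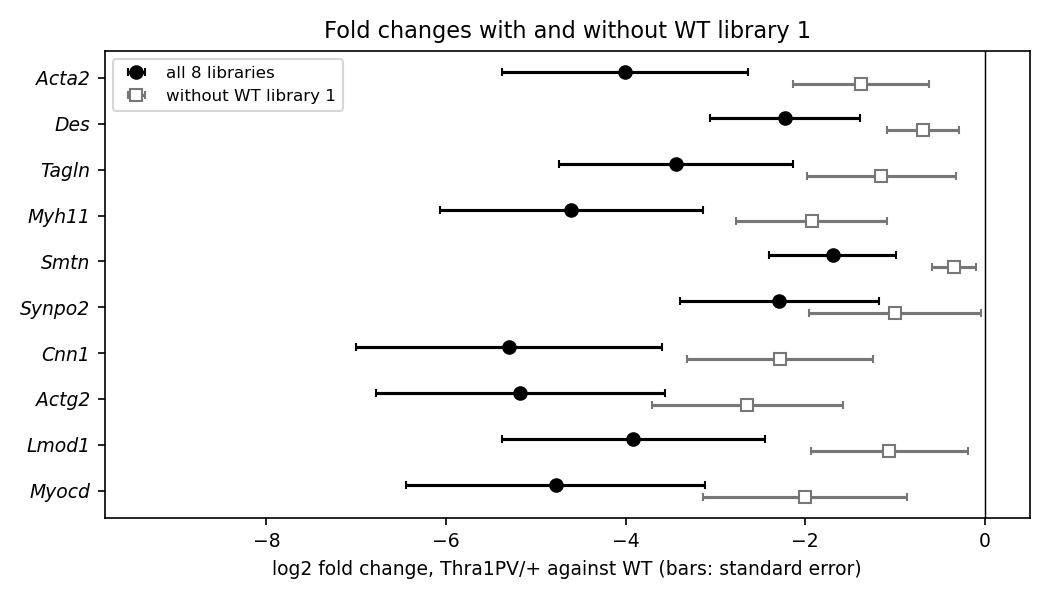
Log2 fold change of Thra1PV/+ against WT for each gene (horizontal axis) with its standard error, from all 8 libraries (filled circles) and without WT library 1 (open squares). The values run from -5.30 to -1.70 with all libraries and from -2.64 to -0.34 without WT library 1, and none passed the test in either fit.

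Actin and myosin form the sliding filaments. Acta2 (chr19:34241090-34255590, minus strand; positions are of GRCm38, from GENCODE release M21) encodes smooth muscle α-actin, the actin that is most abundant in arterial muscle. Its level was 57.3, 17.5, 33.7 and 186 CPM in Thra1PV/+ libraries 1 to 4 and 4154, 168, 126 and 297 CPM in WT libraries 1 to 4. The genotypes overlapped, since Thra1PV/+ library 4 was above WT libraries 2 and 3. The log2 fold change was -4.01 ± 1.37 (SE, n = 4 and 4; edgeR's quasi-likelihood test, adjusted p = 0.377). Without WT library 1 it was -1.38 ± 0.76 (adjusted p = 0.699).

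Actg2 (chr6:83512905-83536265, minus strand) encodes smooth muscle γ-actin, which is typical of the muscle of hollow organs such as gut and uterus. Its level was 7.29, 0.325, 1.19 and 14.0 CPM in Thra1PV/+ libraries 1 to 4 and 714, 29.4, 24.7 and 55.5 CPM in WT libraries 1 to 4. The highest mutant library was below the lowest WT library, with or without WT library 1. Actg2 rested on few counts in the mutant, 16 in library 2 and 58 in library 3. Its log2 fold change was -5.17 ± 1.60 (SE, n = 4 and 4; edgeR's quasi-likelihood test, adjusted p = 0.332), and -2.64 ± 1.07 without WT library 1 (adjusted p = 0.523).

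Myh11 (chr16:14194535-14291372, minus strand) encodes the smooth muscle myosin heavy chain, the motor of the system. Its level was 24.4, 4.04, 4.41 and 49.0 CPM in Thra1PV/+ libraries 1 to 4 and 1752, 71.8, 67.3 and 101 CPM in WT libraries 1 to 4. Again every mutant library was below every WT library. In the test of genotype, the log2 fold change was -4.60 ± 1.47 (SE, n = 4 and 4; edgeR's quasi-likelihood test, adjusted p = 0.344), and -1.93 ± 0.84 without WT library 1 (adjusted p = 0.576).

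Actg2 and Myh11 were thus 2 of 10 genes whose genotypes did not overlap, both lower in the mutant, and 2.49% of all tested genes were lower without overlap. For each of them the two-sided exact permutation test of the log2 CPM gave p = 0.0286, before any correction over the tested genes. This is the smallest value that 4 against 4 libraries allow. Lack of overlap fixes it in advance, so it adds nothing to the count. For the other genes the exact permutation test gave p between 0.0571 and 0.171. Without WT library 1 the exact permutation test gave p = 0.0571 for Actg2 and for Myh11. Of the tested genes, 3.66% were then lower without overlap. The count was 6 of 10 without Thra1PV/+ library 4 (4.06% of the tested genes in that direction), 5 without WT library 3 (4.41%) and 4 without Thra1PV/+ library 1 (5.41%). It stayed at 2 without Thra1PV/+ library 2 or 3 and without WT library 2 or 4. Leaving out a library takes away values that could overlap, so nothing is read from a higher count.

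Cnn1 and Tagln encode calponin 1 and transgelin (SM22), related proteins that bind the thin filament. Cnn1 (chr9:22099216-22109630, plus strand) had 9.79, 1.03, 1.70 and 24.4 CPM in Thra1PV/+ libraries 1 to 4 and 1317, 43.2, 21.1 and 73.6 CPM in WT libraries 1 to 4. Only Thra1PV/+ library 4 reached into the WT range, above WT library 3. Its log2 fold change was the farthest from 0 of the 10 genes with all libraries, at -5.30 ± 1.71 (SE; edgeR's quasi-likelihood test, adjusted p = 0.350), and -2.28 ± 1.03 without WT library 1 (adjusted p = 0.593).

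Tagln (chr9:45929619-45936058, minus strand) had 42.9, 23.8, 41.7 and 243 CPM in Thra1PV/+ libraries 1 to 4 and 3216, 94.0, 192 and 314 CPM in WT libraries 1 to 4. Thra1PV/+ library 4 lay above WT libraries 2 and 3 and far from the other mutant libraries. In the test of genotype, the log2 fold change was -3.44 ± 1.30 (SE; edgeR's quasi-likelihood test, adjusted p = 0.436), and -1.15 ± 0.83 without WT library 1 (adjusted p = 0.817).

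Lmod1, Smtn, Des and Synpo2 build and anchor the filaments. Lmod1 (chr1:135324807-135368065, plus strand) encodes leiomodin 1, which nucleates actin filaments in smooth muscle. It had 2.52, 0.791, 1.66 and 11.4 CPM in Thra1PV/+ libraries 1 to 4 and 221, 7.37, 5.15 and 13.9 CPM in WT libraries 1 to 4. Thra1PV/+ library 4 again sat inside the WT range. In the test of genotype, the log2 fold change was -3.92 ± 1.47 (SE; edgeR's quasi-likelihood test, adjusted p = 0.433), and -1.06 ± 0.87 without WT library 1 (adjusted p = 0.853).

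Des (chr1:75360329-75368579, plus strand) encodes desmin, the intermediate filament of muscle, which stromal cells of the rodent uterus can also make. It had 166, 77.8, 68.0 and 121 CPM in Thra1PV/+ libraries 1 to 4 and 1487, 189, 97.3 and 252 CPM in WT libraries 1 to 4. Thra1PV/+ libraries 1 and 4 were above WT library 3. In the test of genotype, the log2 fold change was -2.22 ± 0.83 (SE; edgeR's quasi-likelihood test, adjusted p = 0.434), and -0.69 ± 0.40 without WT library 1 (adjusted p = 0.726).

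Smtn (chr11:3517523-3540612, minus strand) encodes smoothelin, an actin-binding protein of contractile muscle. It had 41.6, 20.3, 25.4 and 37.5 CPM in Thra1PV/+ libraries 1 to 4 and 282, 44.2, 39.3 and 38.6 CPM in WT libraries 1 to 4. WT libraries 2 to 4 lay within a narrow range, and Thra1PV/+ library 1 was inside it. Its log2 fold change was -1.70 ± 0.71 (SE; edgeR's quasi-likelihood test, adjusted p = 0.492), and -0.34 ± 0.25 without WT library 1 (adjusted p = 0.820), the nearest to 0 of the 10 genes in both fits.

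Synpo2 (chr3:123076519-123236149, minus strand) encodes synaptopodin 2 (myopodin), an actin-bundling protein of the dense bodies and Z-discs. It had 75.5, 5.34, 11.4 and 20.8 CPM in Thra1PV/+ libraries 1 to 4 and 378, 120, 16.7 and 37.0 CPM in WT libraries 1 to 4. WT library 2 and Thra1PV/+ library 1 came next after WT library 1, a place that WT library 4 held for 7 of the 10 genes. These were also the 3 libraries in which the 12 stromal markers summed highest, to 3215 CPM in WT library 1, 3347 in WT library 2 and 2289 in Thra1PV/+ library 1, against at most 1334 in the other 5. The part of stromal tissue in the Synpo2 level was not tested. The log2 fold change was -2.29 ± 1.11 (SE; edgeR's quasi-likelihood test, adjusted p = 0.565), and -0.998 ± 0.956 without WT library 1 (adjusted p = 0.892).

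Myocd (chr11:65176561-65269989, minus strand) encodes myocardin, the coactivator that drives the contractile program. It was the gene with the fewest counts: 24, 2, 0 and 7 in Thra1PV/+ libraries 1 to 4 and 791, 62, 9 and 29 in WT libraries 1 to 4. In CPM the mutant libraries reached at most 0.441 and WT libraries 2 to 4 lay between 0.179 and 1.12, so the genotypes overlapped, with Thra1PV/+ library 1 above WT library 3. The 0 in Thra1PV/+ library 3 allows up to 3 counts. The log2 fold change of -4.78 ± 1.67 (SE; edgeR's quasi-likelihood test, adjusted p = 0.388), and of -2.01 ± 1.14 without WT library 1 (adjusted p = 0.713), therefore rests on very few mutant reads.

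The CArG box, a stretch of A and T between a pair of C and a pair of G, is the motif that SRF binds. RefSeq promoter windows of 300 bases (GRCm38.p6, 250 before to 50 after the start) were at hand for 6 of the 10 genes, Acta2, Cnn1, Des, Lmod1, Smtn and Synpo2. A CArG box, searched on both strands, was in the window of 0 of these 6 and in 1.63% of the 32851 windows of the genome. With 1 of the 6 central bases allowed to be G or C, Acta2 held a pair of matches, and 9.98% of all windows held at least 1. They are shown because they are the sole matches among these genes, each in capitals within 30 bases on the minus strand, at chr19:34255438-34255467, with the match starting 84 bases before the RefSeq start, and at chr19:34255388-34255417, 34 bases before it. GENCODE M21 places the start of Acta2 farther upstream, so that both lie within the bounds of the gene there.
Acta2, distal match: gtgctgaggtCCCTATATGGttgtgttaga
Acta2, proximal match: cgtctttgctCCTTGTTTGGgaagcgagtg
A match of letters is a description and says nothing of binding in these samples.

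In level per length, Tagln and Acta2 led and Myocd came last. In the authors' TPM values, which correct for transcript length, the median over the 8 libraries was 112 for Tagln, 105 for Acta2, 61.6 for Des, 17.7 for Actg2, 17.3 for Smtn, 11.8 for Cnn1, 8.95 for Synpo2, 8.14 for Myh11, 1.66 for Lmod1 and 0.114 for Myocd. Most neighbours in this order could not be separated: Tagln was above Acta2 in 5 of 8 libraries, Acta2 above Des in 5, Actg2 above Smtn in 4, Smtn above Cnn1 in 5, Cnn1 above Synpo2 in 4 and Synpo2 above Myh11 in 4. Des was above Actg2 in 7 of 8 libraries, Myh11 was above Lmod1 in 8 of 8 and Lmod1 above Myocd in 8 of 8. The order differed between genotypes in the median: Des was highest in Thra1PV/+ libraries, with 40.6 TPM against 36.0 for Tagln and 33.9 for Acta2, whereas in WT libraries Tagln had 192 TPM, Acta2 161 TPM and Des 87.3 TPM. In WT library 1 Acta2 led with 2585 TPM and Des, with 598 TPM, was below Cnn1 and Actg2.

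The genes were also set against each other inside each library. Such a ratio need not be independent of the amount of muscle message. For Des against Acta2 it was lowest in WT library 1, where the 10 genes held the largest share of counts, and highest in Thra1PV/+ library 2, where they held the smallest. For every 100 counts of Acta2, WT libraries 1 to 4 had 17.2, 17.5, 19.7 and 18.7 counts of Actg2. Thra1PV/+ libraries 1 to 4 had 12.7, 1.86, 3.52 and 7.53. The WT libraries lay close together although the level of Acta2 in WT library 1 was at least 14.0 times that of any other, and all 4 mutant libraries were below them. On the log2 scale the ratio of Actg2 to Acta2 differed by -1.81 between Thra1PV/+ and WT (mean -4.27 ± 1.15, SD, n = 4, against -2.46 ± 0.09, SD, n = 4). Without WT library 1 the difference was -1.84.

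This ratio was chosen after its values had been seen, as 1 of 45 pairs of the 10 genes. Of the 45 pairs, 8 did not overlap between genotypes, the same number without WT library 1. The pairs share genes, and no share over pairs of all tested genes was computed, so nothing is read from this number. Each of the 8 had an exact permutation p = 0.0286 (two-sided), the smallest possible, and p = 0.161 after Benjamini-Hochberg adjustment over the 45 pairs, so that none passed. Actg2 took part in 5 of the 8 pairs, with Acta2, Myh11, Des, Smtn and Lmod1. Relative to each of these partners, Actg2 was lower in Thra1PV/+ than in WT libraries. The other 3 were Smtn over Myh11, Des over Cnn1 and Lmod1 over Cnn1, all higher in the mutant. Of the 9 other genes set against Acta2, only Actg2 did not overlap, and of 18173 tested genes set against Acta2 in this way 10.6% did not overlap in either direction.

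Lmod1 kept nearly 1 ratio to Acta2 in all libraries of both genotypes, 4.39, 4.53, 4.91 and 6.14 counts for every 100 counts of Acta2 in Thra1PV/+ libraries 1 to 4, and 5.33, 4.38, 4.10 and 4.67 in WT libraries 1 to 4. Myh11 had 42.7, 23.1, 13.1 and 26.3 counts for every 100 of Acta2 in Thra1PV/+ libraries 1 to 4, and 42.2, 42.7, 53.5 and 34.0 in WT libraries 1 to 4. Cnn1 had 17.1, 5.92, 5.03 and 13.1 in the mutant and 31.7, 25.7, 16.8 and 24.8 in WT libraries. For both, Thra1PV/+ library 1 was the mutant library that reached into the WT range. Des went the other way, with 290, 446, 202 and 65.3 counts for every 100 of Acta2 in Thra1PV/+ libraries 1 to 4 and 35.8, 113, 77.4 and 84.8 in WT libraries 1 to 4, and so did Smtn, with 72.5, 116, 75.5 and 20.1 against 6.80, 26.3, 31.3 and 12.98. For Des and Smtn it was Thra1PV/+ library 4 that overlapped with WT.

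**Figure D3:**
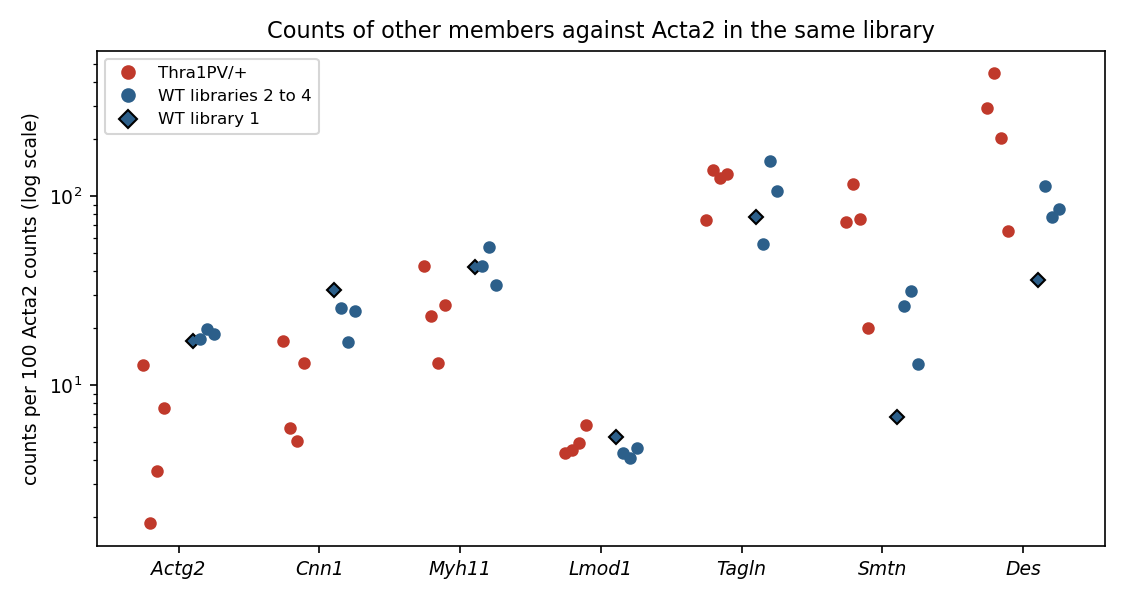
Counts of 7 genes for every 100 counts of Acta2 in the same library (vertical axis, log scale), with Thra1PV/+ libraries in red, WT libraries in blue and WT library 1 as a diamond. The 4 WT libraries lie between 17.2 and 19.7 for Actg2, all above the mutant libraries, Lmod1 stays between 4.10 and 6.14 in all 8, and Des and Smtn reach higher in the mutant.

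The genes were also taken as shares of their own summed counts, as a description. Actg2 was 0.215% to 1.98% of the sum in Thra1PV/+ libraries and 3.82% to 5.27% in WT libraries. Myh11 was 2.33% to 6.93% against 8.53% to 12.9%, and Cnn1 0.685% to 3.45% against 3.59% to 9.73%, where the genotypes nearly touched. Des made up 17.2% to 51.5% of the sum in Thra1PV/+ libraries and 10.99% to 24.6% in WT libraries, which overlapped.

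Reads of related actins can be mistaken for each other, so the coding sequences of Acta2 and Actg2 were compared. In GENCODE M21 they have 1134 and 1131 bases and are 84.2% identical, with 162 of the 176 substituted bases at the third position of a codon. The longest run shared by the aligned coding sequences was 29 bases, and 0% of the 31-base words of Acta2 transcripts were found in any Actg2 transcript. Acta1, the actin of skeletal muscle, is 85.4% identical to Acta2 and also shares 0% of such words with it. The last 60 coding bases are shown to make this visible, with capitals where Actg2 or Acta1 differs from Acta2: 11 bases for Actg2 and 8 for Acta1.
Acta2: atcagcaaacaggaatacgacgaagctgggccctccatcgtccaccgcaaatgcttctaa
Actg2: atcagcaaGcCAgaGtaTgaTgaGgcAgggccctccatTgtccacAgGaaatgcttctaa
Acta1: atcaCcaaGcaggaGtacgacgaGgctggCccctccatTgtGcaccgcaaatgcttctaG
The cytoplasmic actins are nearer in words, with 0.785% of the words of Acta2 in Actb and 1.20% in Actg1.

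The genes varied together across libraries. The Pearson correlation of log2 CPM over the 8 libraries was between 0.679 and 0.998 for the 45 pairs, as a description of libraries in which WT library 1 weighs heavily, and between 0.291 and 0.992 over the 7 libraries without it. Lmod1 and Acta2 were the closest pair both with WT library 1 (0.998) and without it (0.992). Myh11 and Cnn1 were closest to each other as well (0.994 and 0.986). The lowest correlation was between Tagln and Synpo2.

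Among 8 other genes with the pattern most like the mean of the 10, taken from tested genes with a mean log2 CPM of 2 or more, were Hspb7 (a small heat shock protein of muscle; Pearson r = 0.991 over 8 libraries), Rspo3 (an activator of Wnt signalling; 0.989), Pcp4 (a calmodulin-binding protein; 0.987), Jph2 (junctophilin 2, which holds the sarcoplasmic reticulum to the cell membrane; 0.987) and Kcnh2 (a potassium channel; 0.987). These 5 were also among the 8 most alike over the 7 libraries without WT library 1. The other three were Smim26 (0.977), Acta1 (0.975) and Olfml2b (0.973). Pcp4 had 6.11, 0.385, 0.593 and 9.39 CPM in Thra1PV/+ libraries 1 to 4 and 636, 29.6, 12.6 and 36.1 CPM in WT libraries 1 to 4. Of the 8 genes, 3 (Rspo3, Pcp4 and Olfml2b) were lower in the mutant without overlap and the other five overlapped. All 8 were chosen for their likeness to the contractile genes, so nothing is read from this count. Acta1 had 2.44, 0.223, 0.143 and 2.50 CPM in Thra1PV/+ libraries 1 to 4 and 556, 19.1, 2.37 and 30.4 CPM in WT libraries 1 to 4, with an overlap at WT library 3.

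Beyond the 10 genes, 6 lists of 109 further genes of the contractile machinery were examined, of which 104 were tested. None was called in edgeR's quasi-likelihood test, with all libraries or without WT library 1, against 0.990% and 0.901% of all tested genes. Of the 104, 26 had an unadjusted p under 0.05, all lower in the mutant, against 4.72% of all tested genes in that direction. In WT library 1, 28 stood at least 4-fold apart, against 1.31% of all tested genes. Of the 104, 92 had a fold change below 0, and 69 without WT library 1, against 56.8% and 49.6%. The median log2 fold change was -0.80, and -0.13 without WT library 1. In the fit without WT library 1, 7 genes had an unadjusted p under 0.05, all lower, against 3.53% in that direction. The same shares of all tested genes apply to the counts of each list below. DESeq2 called 5 of the 109, all lower in the mutant, against 3.58% of all genes to which it gave an adjusted p-value: Tns1 of the thin filament list (log2 fold change -1.48), Synm of the dense plaque list (-3.09), Ryr3 of the calcium list (-3.17), and Ptgfr (-3.69) and Agtr1a (-2.49) of the receptor list, which are named for this result and not by a rule. Some of the 109, Mylk, Ptger3 and Tgfb1i1 among them, got no adjusted p-value from DESeq2 and could not be called by it. The 5 of 109 and the 3.58% therefore do not have like denominators.

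Of 15 genes that bind or build thin filaments, 12 had a fold change below 0 and 6 stood apart in WT library 1. Tpm1, a tropomyosin, had 213 to 238 CPM in mutant libraries and 1775, 229, 196 and 407 CPM in WT libraries 1 to 4, and a log2 fold change of -1.57, or -0.29 without WT library 1. Flna, the crosslinker filamin A, had -1.30, or 0.04 without WT library 1, and Csrp1 had -1.53, or -0.08. Of 16 genes of the myosin light chains, their kinase and their phosphatase, 15 were below 0 and 4 stood apart. Mylk, the light chain kinase, had 54.8 to 218 CPM in mutant libraries and 2796, 224, 107 and 268 CPM in WT libraries 1 to 4, and a log2 fold change of -2.65, or -0.53 without WT library 1.

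Of 27 genes of dense plaques, caveolae and the dystrophin complex, 26 were below 0 and 7 stood apart, and of 19 tested genes of calcium and potassium handling, 16 were below 0 and 4 stood apart. Atp2a2, the calcium pump of the reticulum, had a log2 fold change of 0.10, and Ano1, a chloride channel opened by calcium, had 0.70. Of 13 tested receptor and gap junction genes, 11 were below 0 and 5 stood apart. Ptger3, a receptor for prostaglandin E2, had 3.45, 0.0406, 0.490 and 1.05 CPM in Thra1PV/+ libraries 1 to 4 and 256, 10.9, 1.87 and 5.53 CPM in WT libraries 1 to 4. Oxtr, the oxytocin receptor, which is named here after its values were seen, had at most 2.52 CPM in mutant libraries, 42.2 CPM in WT library 1 and 2.35 to 4.12 CPM in WT libraries 2 to 4. Gja1, the gap junction connexin 43, had 106, 147, 183 and 112 CPM in Thra1PV/+ libraries 1 to 4 and 72.3, 88.0, 94.3 and 125 CPM in WT libraries 1 to 4, so WT library 1 was its lowest.

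Of 14 tested regulators of the SRF and myocardin pathway, 12 were below 0 and 2, Tgfb1i1 and the long noncoding RNA Carmn, stood apart. Srf itself had 69.7 to 87.3 CPM in mutant libraries and 236, 98.0, 70.9 and 86.8 CPM in WT libraries 1 to 4, and its log2 fold change was -0.71, or -0.14 without WT library 1. Tgfb1i1, the SRF pathway cofactor Hic-5, had -1.93, or -0.43 without WT library 1. Of 14 tested paralogues of the 10 genes, 1 stood apart in WT library 1, Acta1. Its log2 fold change was -6.83 with all libraries, and the genotypes overlapped. It had 556 CPM in WT library 1 and at most 30.4 CPM in any other library. The cytoplasmic actins Actb and Actg1 had log2 fold changes of -0.35 and 0.06.

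**Figure D4:**
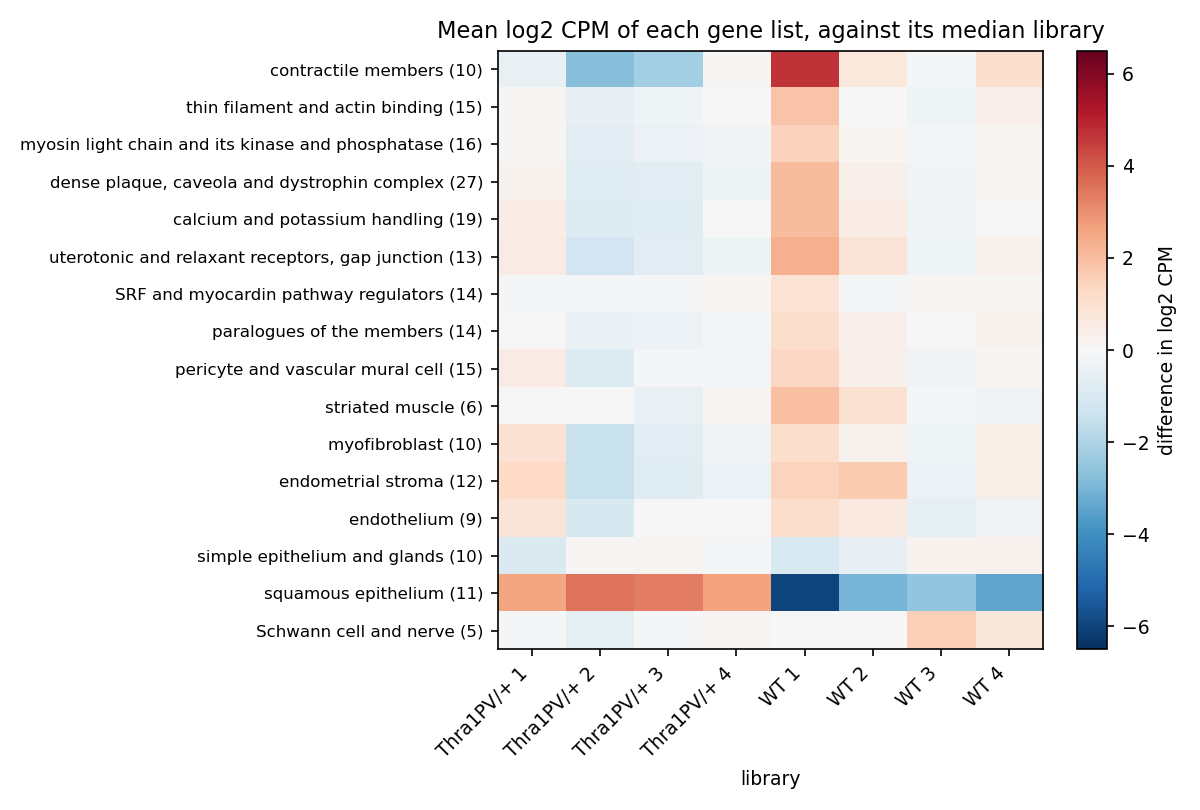
Mean log2 CPM of the tested genes of each list in each library, less the median of the 8 libraries (colour; the number of tested genes is in brackets). WT library 1 is highest for the 10 contractile genes and for all 6 lists of the contractile machinery. It is also highest for the paralogue, pericyte, striated muscle, myofibroblast and endothelium lists, by a smaller difference than for the 10 genes. The squamous epithelium list separates the genotypes.

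Markers of the other cells that could bring in such messages were measured in the same libraries. Of 15 genes of pericytes and vascular mural cells, 13 had a fold change below 0. Of the 15, 3 (Kcnj8, Mcam and Aoc3) stood apart in WT library 1. In edgeR's quasi-likelihood test 2 were called, Notch3 and Ndufa4l2, both higher in the mutant. DESeq2 called 3, these 2 and Vtn, against 3.58% of all genes to which it gave an adjusted p-value. Vtn was lower in the mutant (log2 fold change -1.60, adjusted p = 0.0876 in DESeq2). Notch3, a receptor of mural cells, had 38.0, 55.6, 47.8 and 39.3 CPM in Thra1PV/+ libraries 1 to 4 and 18.1, 17.0, 21.8 and 15.4 CPM in WT libraries 1 to 4. All mutant libraries were above all WT libraries, and the log2 fold change was 1.32 ± 0.17 (SE, n = 4 and 4; edgeR's quasi-likelihood test, adjusted p = 0.0181). Ndufa4l2, a mitochondrial protein found in pericytes, had 17.8, 81.8, 85.6 and 50.1 CPM against 7.04, 10.3, 7.80 and 8.87 CPM, and a log2 fold change of 2.79 ± 0.46 (SE, n = 4 and 4; edgeR's quasi-likelihood test, adjusted p = 0.0389). Notch3 was not called by limma on log2 TPM with a pseudocount of 1 (log2 fold change 1.01). The call of Ndufa4l2 was lost without Thra1PV/+ library 2 or 3 and without WT library 1, 3 or 4, where its log2 fold change lay between 2.55 and 2.81. WT library 1 was within the range of the other WT libraries for Notch3 and just below it for Ndufa4l2. Rgs5 and Pdgfrb, which mark pericytes, had log2 fold changes of -0.70 and -0.08, and neither stood apart. The summed list was 292 to 559 CPM in mutant libraries, 287 to 503 CPM in WT libraries 2 to 4 and 929 CPM in WT library 1.

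The stromal list stood at 3215 CPM in WT library 1, within 1164 to 3347 CPM for the other WT libraries, and the myofibroblast list of 10 genes at 3100 CPM, within 1226 to 3410 CPM. For both, 0 genes stood apart in WT library 1. In mean log2 CPM the myofibroblast list was highest in WT library 1 (6.09, next 5.91 in Thra1PV/+ library 1). In mutant libraries the stromal list stood at 419 to 2289 CPM. All 12 of its genes had a fold change below 0, and 11 without WT library 1 (median log2 fold change -0.83 and -0.76). None of the 12 was called in edgeR's quasi-likelihood test. DESeq2 called 1, Dcn, lower in the mutant (log2 fold change -2.22, adjusted p = 0.0466 in DESeq2). The simple epithelium list was lowest in WT library 1, at 2279 CPM, against 2309 to 6054 CPM in the other 7 libraries. The endothelium list reached 350 CPM in WT library 1, against 80.9 to 293 CPM in the other 7 libraries, with 1 of 9 genes, Tek, apart. The striated muscle list, of which 6 of 13 genes were tested and 3 were at 0 in every library, summed to 172 CPM in WT library 1 and to 5.72 to 15.4 CPM elsewhere. Most of it was Tnni2, a troponin of fast skeletal muscle, with 149 CPM in WT library 1 and 2.53 to 9.44 CPM elsewhere.

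The serosa and what lies outside it could come with myometrium in a section. The mesothelium list of 7 genes summed to 1.58 CPM in WT library 1, to 0.544 to 4.80 CPM in the other WT libraries and to 4.26 to 4.38 CPM in mutant libraries. Its 1 called gene, Bnc1, higher in the mutant, is also a gene of squamous basal cells, and its call was lost without Thra1PV/+ library 3 or WT library 3. The adipocyte list summed to 4.06 CPM in WT library 1, against 0.203 to 18.02 CPM in the other 7 libraries, and the Schwann cell and nerve list to 85.6 CPM, against 48.0 to 152 CPM. In neither did a gene stand apart in WT library 1. The part of each of these cell types in the contractile gene levels was not tested.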

How the data were processed

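The authors captured endometrium from stained frozen sections with an Arcturus XT instrument, made stranded mRNA libraries, and used Trimmomatic for trimming and Salmon for quantification (mm10). Versions are not given in the sources used here. The authors deposited estimated counts per gene, not normalized, and TPM values, which proved quantile-normalized (values of equal rank lay within 0.291 TPM of each other). Its 1 column matching no sample was left out.

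Estimated counts were rounded and tested with edgeR 4.0.16 (R 4.3.3): filterByExpr (minimum count 10, minimum total 15), TMM normalization, quasi-likelihood test of genotype, Benjamini-Hochberg adjustment. Each SE was computed from the F statistic. CPM used TMM library sizes, and log2 CPM a prior count of 2. Identifiers without a symbol held at most 0.00896% of counts. Single values were compared by exact permutation of the genotypes. Alternatives (other normalizations, filters and tools, a replicate block, TPM, each library left out) used limma 3.58.1 and DESeq2 1.42.0. On simulated data, edgeR with and without the block, DESeq2, limma voom and limma on log2 CPM were tried. The simulated means set no library apart as WT library 1 was, and the other alternatives were not tried on them.

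The 10 genes and all lists were chosen with earlier results of these data known. Named from each list were called genes that a result turns on and some of the 3 most abundant. The study's methods give 4 mice for each genotype, 1 library each as far as the labels show. The same replicate number did not pair libraries (correlations of deviations 0.27, -0.44, 0.34 and -0.16).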

Additional observations from a re-analysis of the deposited data

Results flagged for a closer look

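Values were compared within each genotype by Dixon's ratio, the gap of an extreme library to its nearest neighbour over the whole range, with a critical value of 0.829 for 4 libraries. Of 42 groups, 14 passed it, where chance alone gives about 1 in 20, and the groups share libraries and genes. In 12 of the 14 the extreme library was WT library 1, as the highest. On the CPM scale its ratios were 0.957 for Acta2, 0.955 for Actg2, 0.980 for Myh11, 0.960 for Cnn1, 0.929 for Tagln, 0.889 for Des, 0.977 for Smtn, 0.960 for Lmod1 and 0.937 for Myocd. On the log2 CPM scale it passed for Myh11 (0.875) and Smtn (0.932). The share of counts held by the 10 genes gave 0.951. Synpo2 passed on neither scale.

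The other two were Thra1PV/+ library 4, the highest mutant library, for Tagln (0.913, with 243 CPM against 23.8 to 42.9) and for Lmod1 (0.838, with 11.4 CPM against 0.791 to 2.52), both on the CPM scale. On the log2 scale neither passed.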

How the results depend on the processing

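No alternative called any of the 10 genes, and all 179 values of their log2 fold changes under the alternatives were below 0, from -6.44 to -0.34 (smallest adjusted p-value 0.105; DESeq2 gave none for 8 genes). Their median was -4.88 to -1.27 when 1 library was left out, the latter without WT library 1, and 2 to 6 of the 10 genes did not overlap. At an unadjusted p under 0.05 there were 9. Replicate numbers did not pair the libraries (1 of 4 mutant libraries correlated best with its own number), and the replicate block gave 0 calls among the 10 genes, 82 among all tested genes against 180, 1 of the mural list, 5 of the squamous list and 0 of the mesothelium list. DESeq2 called 791 genes in all, 3 of the mural list and 2 of the receptor list. It called 1 each of the thin filament, dense plaque, calcium and potassium, stroma, myofibroblast and nerve lists. At least 10 counts in every library gave 81 calls in all, 3 squamous and 0 mesothelium, and left Myocd out. Limma voom with quality weights gave 311. Limma on log2 TPM with a pseudocount of 1 called 1 mural and 0 mesothelium genes. Leaving out 1 library gave 81 to 167 calls in all, 1 to 2 mural, 4 to 9 squamous and 0 to 1 mesothelium. The cause of these differences was not tested. Tagln2 turned to 0.0186 with library size alone, and to 0.0262 and 0.0264 on log2 TPM with a pseudocount of 1 and 0.1. When 1 library was left out, the log2 fold changes of genes near 0 turned sign: Tagln2 -0.20 to 0.11, Atp2a2 -0.0292 to 0.25, Rxfp1 -0.75 to 0.32, Actg1 -0.0773 to 0.26, Pdgfrb -0.24 to 0.17 and Flna -1.62 to 0.0387. The difference between genotypes in the log2 ratio of Actg2 to Acta2 stayed between -2.25 and -1.37 when 1 library was left out, an alternative added after seeing the data, as were TPM (-1.97) and no prior count (-1.86). With 4 libraries a genotype and 16 Actg2 counts in 1 of them, depth limits the ratios of low genes.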
